A study of Homo sapiens with 6 samples.

Results

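The dual-specificity MAP kinase phosphatases are enzymes that switch off MAP kinases, and 10 of their genes, DUSP1, DUSP3, DUSP4, DUSP5, DUSP6, DUSP7, DUSP8, DUSP10, DUSP14 and DUSP16, were followed in OE33 cells. They were taken by gene symbol from the 58051 genes of the deposited count table, through GENCODE 29. The rule itself uses no measured value, but the set was proposed with earlier results of these data known. All 10 were found, and all 10 passed the filter on low counts that left 14773 genes for testing. OE33 cells given 15 µM APX2009 for 24 h (3 libraries) were set against untreated OE33 cells (3 libraries). OE33 is an established human oesophageal adenocarcinoma line of epithelial type, so each group is a single cell line in culture. APX2009 is described in the labels as an inhibitor of the redox function of APE1, a DNA repair enzyme that also keeps certain transcription factors reduced. The labels name no vehicle for the untreated cells, no genotype difference between the groups and no second compound. The design text calls the 3 replicates of each group independent biological ones.

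MAP kinases are switched on by phosphorylation of a threonine and a tyrosine in the same loop, and a dual-specificity phosphatase removes both phosphates. The typical members carry a docking domain that sets which kinase they bind: DUSP6 and DUSP7 act in the cytoplasm and DUSP5 in the nucleus, all with preference for ERK, whereas DUSP8, DUSP10 and DUSP16 prefer the stress kinases JNK and p38. DUSP1 and DUSP4 are nuclear enzymes of broader range, and DUSP3 and DUSP14 are small enzymes without the docking domain. Several of these genes are themselves switched on by the kinase they silence, which makes them feedback inhibitors in epithelial tumour cells.

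The libraries held 26111656, 22486741 and 21158750 gene counts in APX2009 replicates 1, 2 and 3, and 22443569, 25093753 and 22601491 in untreated replicates 1, 2 and 3. APX2009 replicate 1 stood apart. It had counts in 25015 genes, against 22446 and 21845 in the other APX2009 libraries and 22207 to 22322 in the untreated libraries, and 0.315% of its counts came from the synthetic ERCC spike-in transcripts, against 0.734% to 0.752% in the other APX2009 libraries and 0.480% to 0.564% in the untreated libraries. The 5 epithelial markers were present throughout, with a summed level of 13203 to 16582 CPM (counts scaled by library size) in APX2009 libraries and 24447 to 25141 CPM in untreated libraries. The 9 markers of fibroblasts, leukocytes and endothelium summed to 12.1 to 21.6 CPM in APX2009 libraries and 10.6 to 14.1 CPM in untreated libraries, with 1 to 6 of the 9 at 0 in APX2009 libraries and 5 or 6 at 0 in untreated libraries. KRT19 made up most of the epithelial sum (11303 CPM with APX2009 and 18555 CPM in untreated cells). Of the 5 epithelial markers 4 fell at an edgeR adjusted p under 0.05, where 17.4% of all genes tested did. The log2 changes were -0.72 for KRT19, -1.08 for KRT8, -0.43 for KRT18 and -0.38 for CDH1. EPCAM did not pass, at 446.3 CPM with APX2009 and 447.1 CPM in untreated cells. COL1A1, a fibroblast marker, made up most of the other sum. It averaged 11.3 CPM with APX2009 and 10.2 CPM in untreated cells and did not pass (edgeR adjusted p = 0.560). CD68, a macrophage marker that tumour cells can also express, was higher with APX2009 (3.17 ± 0.640 CPM) than in untreated cells (1.39 ± 0.436 CPM; SD, n = 3 each; edgeR adjusted p = 0.00513), and the T cell marker CD3E was at 0 in every library. The epithelial sum was lower with APX2009 and the other sum was highest in APX2009 replicate 1, and the part of either in the results on phosphatases was not tested. In these bulk cultures, fewer cells that express a gene and less RNA per cell cannot be told apart.

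After APX2009, transcripts of the phosphatases changed in both directions. DUSP6 fell 2.52-fold and DUSP1 rose 2.08-fold, DUSP4, DUSP7, DUSP8 and DUSP10 fell by smaller factors, and DUSP16 rose slightly. DUSP3, DUSP5 and DUSP14 did not pass the test. The threshold for a change was an edgeR quasi-likelihood p under 0.05 after Benjamini-Hochberg adjustment over the 14773 genes. By that rule 7 of the 10 members changed, where 34.7% of all genes tested did: 2 members rose, against 17.2% of all genes, and 5 members fell, against 17.4%. In 8 of the 10 the APX2009 and untreated values did not overlap, where 49.4% of all genes showed the same, with 24.5% of genes entirely higher and 25.0% entirely lower. The median log2 change of the 10 members was -0.16, beside 0.02 for all genes tested. When libraries were scaled by the ERCC transcripts instead, no member passed edgeR's adjusted threshold and 2, DUSP1 and DUSP6, had an unadjusted p under 0.05, as 682 of all genes tested did (4.62%), although all 10 kept their direction; DESeq2 with its own scaling called 6 and limma voom 7.

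**Figure D1:**
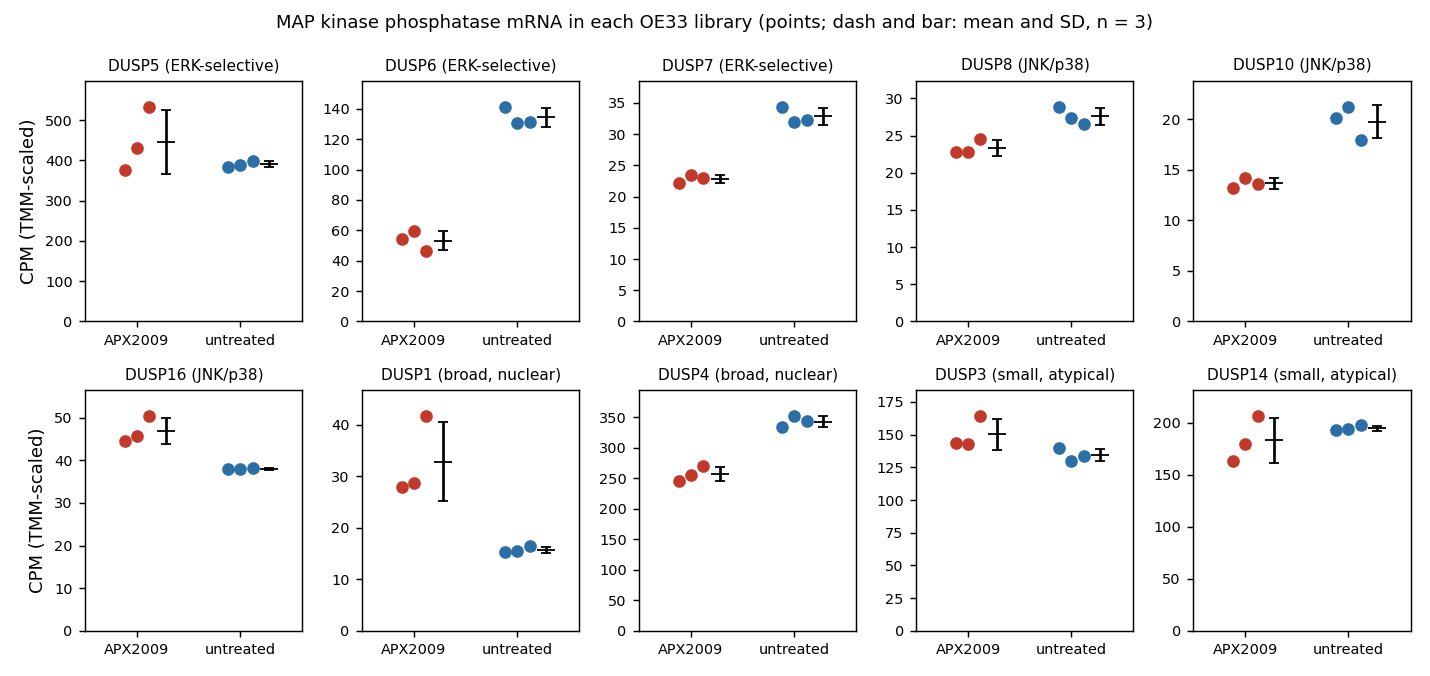
CPM of each of the 10 phosphatase genes in each library (points), with the mean and SD of 3 libraries beside them, APX2009 left and untreated right; each panel has its own linear axis from 0. All 3 APX2009 points lie below all untreated points for DUSP4, DUSP6, DUSP7, DUSP8 and DUSP10, above them for DUSP1, DUSP3 and DUSP16, and mix with them for DUSP5 and DUSP14.

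The stretch of DNA just before the RefSeq transcription start was read for the members with an entry in the RefSeq table of GRCh38.p14. It gave 9 windows of 250 bases for 8 members. DUSP4 and DUSP5 had no entry. Both strands were searched for the cyclic AMP response element TGACGTCA, the site of the CREB and ATF factors. It was found in the windows of DUSP1, which rose, and DUSP8, which fell. Among all 35116 windows of that length 1.65% held it, and 0.0541% held it at least 2 times, as DUSP8 did. These windows are printed with the element in capitals, together with that of DUSP6, the member with the largest fall, which held none of the motifs searched. All 3 are written 5′ to 3′ along the minus strand, on which these genes lie. The DUSP1 window is chr5:172771196-172771445, the DUSP8 window is chr11:1572272-1572521 and the DUSP6 window is chr12:89352502-89352751.
DUSP1: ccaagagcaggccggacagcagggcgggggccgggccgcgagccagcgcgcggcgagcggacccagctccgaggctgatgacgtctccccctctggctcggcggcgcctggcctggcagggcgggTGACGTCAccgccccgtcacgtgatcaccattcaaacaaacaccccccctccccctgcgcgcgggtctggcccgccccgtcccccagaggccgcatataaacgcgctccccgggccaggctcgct
DUSP8: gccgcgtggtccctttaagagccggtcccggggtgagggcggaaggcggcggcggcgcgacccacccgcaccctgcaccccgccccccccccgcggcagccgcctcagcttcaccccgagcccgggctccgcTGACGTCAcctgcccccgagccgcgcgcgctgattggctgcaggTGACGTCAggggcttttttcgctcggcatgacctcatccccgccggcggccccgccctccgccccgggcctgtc
DUSP6: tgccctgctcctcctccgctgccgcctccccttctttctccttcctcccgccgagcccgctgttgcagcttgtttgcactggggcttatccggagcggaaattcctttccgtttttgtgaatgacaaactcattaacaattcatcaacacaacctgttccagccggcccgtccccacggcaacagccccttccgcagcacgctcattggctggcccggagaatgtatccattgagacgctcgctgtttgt
The element began at base -125 from the start in DUSP1, and at bases -118 and -74 in DUSP8. The same windows were searched for the AP-1 site TGANTCA, the ETS site CCGGAA, the core of the antioxidant response element TGACNNNGC and the first letters of the cyclic AMP response element alone, TGACG. AP-1 and ETS letters were in none of the 9 member windows, against 6.57% and 14.5% of all windows. The antioxidant core was in 1 of 9, that of DUSP1, against 10.9% of all windows, and TGACG, which overlaps the full element, was in 3 of 9 (DUSP1, DUSP3 and DUSP8), against 21.2%. A match is a run of letters and not a measured binding site. Of the 8 members, DUSP1 alone had its RefSeq start on the gene end given by GENCODE 29. The start lay 351 bases from it in DUSP8, 480 in DUSP16, 770 in DUSP6 and 5276 for 1 of the 2 DUSP10 windows. The DUSP6 window and that DUSP10 window lie inside the genes as GENCODE 29 bounds them, so they are not upstream of its start. Genes on the opposite strand also cover the windows printed: AC022217.3 that of DUSP1, KRTAP5-AS1 that of DUSP8 and AC024909.2 that of DUSP6.

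The ERK-selective members diverged among themselves: DUSP6 and DUSP7 fell, and DUSP5 did not pass the test. DUSP6, the cytoplasmic ERK phosphatase, is ENSG00000139318 at chr12:89347232-89353271 on the minus strand. It had 54.1, 59.2 and 46.4 CPM in the APX2009 libraries, from 1444, 1333 and 968 counts, and 141.4, 130.7 and 131.1 CPM in the untreated libraries, from 3162, 3255 and 2946 counts. Every APX2009 library was far below every untreated library. The group means were 53.2 ± 6.48 CPM with APX2009 and 134.4 ± 6.04 CPM in untreated cells (SD, n = 3 each), a log2 change of -1.34 ± 0.09 (standard error; 95% interval -1.53 to -1.14; edgeR adjusted p = 3.98e-06). Leaving out each library in turn kept the edgeR adjusted p at or under 5.70e-05. A gene on the opposite strand, AC024909.2, overlaps 1875 bases of DUSP6 exons. It had 11, 4 and 7 counts in APX2009 libraries and 23, 12 and 16 in untreated libraries, at most 0.762% of those of DUSP6, and with no stated strand setting reads of the pair cannot be told apart.

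DUSP7, the other cytoplasmic ERK phosphatase (ENSG00000164086, chr3:52048919-52056550, minus strand), had 22.1, 23.4 and 23.0 CPM in APX2009 libraries and 34.4, 31.9 and 32.3 CPM in untreated libraries. The APX2009 values lay close together and all under the untreated ones. The means were 22.8 ± 0.656 CPM with APX2009 and 32.8 ± 1.34 CPM in untreated cells (SD, n = 3 each), which is 1.44-fold lower, with a log2 change of -0.52 ± 0.07 (SE; 95% interval -0.68 to -0.36; edgeR adjusted p = 3.75e-04).

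DUSP5, the nuclear ERK phosphatase (ENSG00000138166, chr10:110497838-110511544, plus strand), had 376.3, 429.7 and 533.1 CPM in APX2009 libraries and 384.4, 387.7 and 398.4 CPM in untreated libraries. APX2009 replicate 1 was below all untreated libraries and the other APX2009 libraries were above them, so the groups overlapped. The means were 446.4 ± 79.7 CPM with APX2009 and 390.2 ± 7.31 CPM in untreated cells (SD, n = 3 each), and the log2 change of 0.19 ± 0.11 did not pass (SE; 95% interval -0.05 to 0.44; edgeR adjusted p = 0.202). Its value depended on single libraries: the log2 change was 0.30 without APX2009 replicate 1 (edgeR adjusted p = 0.00721) and 0.05 without APX2009 replicate 3 (edgeR adjusted p = 0.693). The pseudogene DUSP5P1 held at most 0.179% of the DUSP5 counts, and DUSP5P2 was at 0 in every library.

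The 3 phosphatases of JNK and p38 all changed, and not in 1 direction. DUSP10, which dephosphorylates p38 and JNK (ENSG00000143507, chr1:221701424-221742176, minus strand), had 13.2, 14.2 and 13.6 CPM in APX2009 libraries and 20.1, 21.2 and 18.0 CPM in untreated libraries. The groups were well apart. With means of 13.7 ± 0.510 CPM with APX2009 and 19.8 ± 1.66 CPM in untreated cells (SD, n = 3 each), it was 1.45-fold lower, a log2 change of -0.53 ± 0.09 (SE; 95% interval -0.74 to -0.33; edgeR adjusted p = 0.00160).

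DUSP16, a JNK phosphatase that shuttles between nucleus and cytoplasm (ENSG00000111266, chr12:12474210-12562383, minus strand), had 44.5, 45.8 and 50.3 CPM in APX2009 libraries and 37.9, 37.9 and 38.2 CPM in untreated libraries. Every APX2009 library was above the narrow untreated range. Its means were 46.9 ± 3.06 CPM with APX2009 and 37.99 ± 0.163 CPM in untreated cells (SD, n = 3 each), which is 1.23-fold higher, with a log2 change of 0.30 ± 0.07 (SE; 95% interval 0.15 to 0.45; edgeR adjusted p = 0.00669).

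DUSP8, a phosphatase of JNK and p38 (ENSG00000184545, chr11:1554044-1571920, minus strand), had 22.7, 22.8 and 24.6 CPM in APX2009 libraries and 28.9, 27.3 and 26.6 CPM in untreated libraries. The groups did not overlap, though the gap between them was small. The means were 23.4 ± 1.04 CPM with APX2009 and 27.6 ± 1.18 CPM in untreated cells (SD, n = 3 each), 1.18-fold lower, with a log2 change of -0.24 ± 0.08 (SE; 95% interval -0.41 to -0.07; edgeR adjusted p = 0.0314). This was the least stable of the 7 calls: among the alternatives run, it was lost in DESeq2 (adjusted p = 0.0567) and in edgeR without APX2009 replicate 2 (adjusted p = 0.0883) or without untreated replicate 1, 2 or 3 (adjusted p = 0.108, 0.0887 and 0.0657). The pseudogene DUSP8P5 had 36, 24 and 33 counts in APX2009 libraries and 18, 14 and 29 in untreated libraries, up to 6.43% of the DUSP8 counts. DUSP8P3 had at most 3 counts in a library and DUSP8P4 had 0. KRTAP5-AS1, which overlaps the gene on the opposite strand but shares no exon with it, had 69, 53 and 60 in APX2009 libraries and 90, 90 and 84 in untreated libraries.

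Set against each other, the ERK-selective members had a median log2 change of -0.52 (DUSP5, DUSP6 and DUSP7: none rose, 2 fell, 1 did not pass) and the JNK and p38 members one of -0.24 (DUSP8, DUSP10 and DUSP16: 1 rose, 2 fell). The medians differed by -0.28, with a range of -0.32 to -0.25 when each library was left out, and the means of the classes by -0.40. In each library the mean log2 deviation of a class from its untreated mean was also taken. For the ERK-selective class it was -0.64, -0.51 and -0.53 in APX2009 libraries and 0.04, -0.03 and -0.01 in untreated libraries. For the JNK and p38 class it was -0.21, -0.16 and -0.10 in APX2009 libraries and 0.03, 0.03 and -0.06 in untreated libraries. Both classes were thus lower in every APX2009 library than in every untreated one, the ERK-selective class by more, yet each class held a member that went the other way from its median. Each median is the value of 1 gene, DUSP7 for the ERK-selective class and DUSP8 for the JNK and p38 class. The ERK-selective mean included DUSP6, which had the largest fall (-1.34), whereas DUSP7 (-0.52) and DUSP10 (-0.53) fell alike. With 3 genes to a class, these values describe the genes named and no test of the class difference was made.

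**Figure D2:**
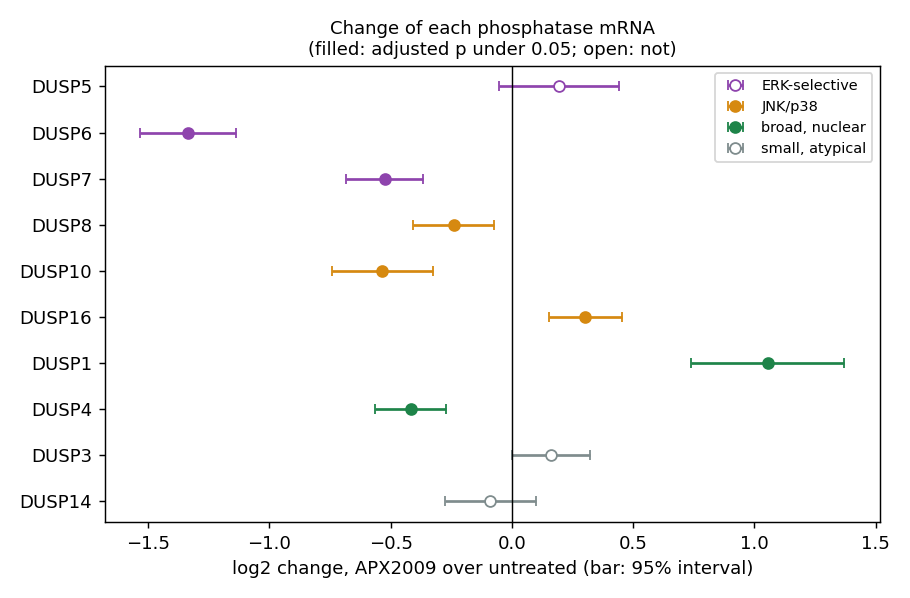
Log2 change (APX2009 over untreated, edgeR) of the 10 phosphatase genes, grouped by the kinase they prefer, with 95% intervals as bars and a line at 0. DUSP6 at -1.34 and DUSP1 at 1.05 lie farthest from 0, and the intervals of DUSP3, DUSP5 and DUSP14 include 0.

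The broad nuclear phosphatases moved in opposite directions. DUSP1, an immediate early gene whose enzyme acts on p38, JNK and ERK (ENSG00000120129, chr5:172768090-172771195, minus strand), had 28.0, 28.8 and 41.7 CPM in the APX2009 libraries, from 748, 648 and 870 counts, and 15.4, 15.5 and 16.5 CPM in the untreated libraries, from 344, 386 and 370 counts. All APX2009 libraries were above all untreated ones, and APX2009 replicate 3 was well above the rest. The means were 32.8 ± 7.67 CPM with APX2009 and 15.8 ± 0.593 CPM in untreated cells (SD, n = 3 each), a log2 change of 1.05 ± 0.14 (SE; 95% interval 0.74 to 1.37; edgeR adjusted p = 3.57e-04). Without APX2009 replicate 3 the log2 change was 0.85, and it passed the test in edgeR whichever library was left out, with an adjusted p of at most 0.00243.

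DUSP4, a nuclear phosphatase of ERK and JNK (ENSG00000120875, chr8:29333064-29350668, minus strand), had 246.2, 255.4 and 269.5 CPM in APX2009 libraries and 333.8, 351.8 and 343.8 CPM in untreated libraries. The APX2009 libraries were all lower, by a margin wider than the spread within either group. The means were 257.0 ± 11.8 CPM with APX2009 and 343.1 ± 9.05 CPM in untreated cells (SD, n = 3 each), 1.34-fold lower, with a log2 change of -0.42 ± 0.07 (SE; 95% interval -0.56 to -0.27; edgeR adjusted p = 8.53e-04). Placing DUSP4 with the ERK-selective members and DUSP1 with the JNK and p38 members widened the difference of the class medians to -0.50. The medians were then -0.47 and 0.03. DUSP4 fell and DUSP1 rose, so this placement is no separate evidence of a class difference, and no other placement was run.

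Neither small enzyme passed the test. DUSP3, a nuclear phosphatase of ERK and JNK (ENSG00000108861, chr17:43766121-43778988, minus strand), had 143.8, 142.8 and 164.1 CPM in APX2009 libraries and 139.6, 129.8 and 133.9 CPM in untreated libraries. The groups just failed to overlap, and its log2 change was 0.16 ± 0.07 (SE; 95% interval -0.0010 to 0.32; edgeR adjusted p = 0.113). Without APX2009 replicate 1 the log2 change was 0.19 and passed (edgeR adjusted p = 0.0318). DUSP14 (ENSG00000276023, chr17:37489831-37513501, plus strand), known to dampen signalling upstream of NF-kappaB, had 163.4, 179.7 and 206.5 CPM in APX2009 libraries and 192.9, 193.7 and 197.9 CPM in untreated libraries. The APX2009 values spread to both sides of the tight untreated ones, and the log2 change was -0.09 ± 0.08 (SE; 95% interval -0.28 to 0.10; edgeR adjusted p = 0.447).

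The APX2009 libraries also differed from each other across the members. APX2009 replicate 3 had the highest CPM of the APX2009 libraries for 7 of the 10 members, and APX2009 replicate 1 had the lowest for 8. For 7 of the 10 the SD was larger with APX2009 than in untreated cells. DUSP6 went against this order, with its lowest APX2009 value in replicate 3, the library where DUSP1 and DUSP5 were highest. The same counts were not made over all genes tested, so whether the order or the larger SD is particular to the members was not tested. Across the genes tested, APX2009 replicate 1 stood apart from replicates 2 and 3 (chi-square per degree of freedom 29.9 and 33.4). Between APX2009 replicates 2 and 3 that value was 5.24.

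To compare genes roughly with each other, levels were divided by the merged length of all annotated exons of a gene. That length can exceed the length of the transcripts expressed, which was not measured. The levels spanned 4.05 to 170.7 CPM per kb with APX2009 and 5.81 to 149.2 CPM per kb in untreated cells. With APX2009 the order from high to low was DUSP5 (170.7 CPM per kb), DUSP14 (73.3), DUSP4 (35.4), DUSP3 (29.97), DUSP1 (16.3), DUSP6 (11.5), DUSP16 (8.19), DUSP8 (5.06), DUSP10 (4.69) and DUSP7 (4.05), and no neighbours overlapped in their 3 libraries. In untreated cells it was DUSP5 (149.2 CPM per kb), DUSP14 (77.96), DUSP4 (47.3), DUSP6 (29.01), DUSP3 (26.8), DUSP1 (7.82), DUSP10 (6.79), DUSP16 (6.64), DUSP8 (5.98) and DUSP7 (5.81). There the ranges of DUSP10 and DUSP16 overlapped, and so did those of DUSP8 and DUSP7. DUSP6 thus stood 6th with APX2009 and 4th in untreated cells, and DUSP1 5th with APX2009 and 6th in untreated cells. The DUSP6 length includes the 1875 exon bases shared with AC024909.2, and how reads there were counted is not known. Its level per length may therefore be too low in both groups. Its place, and its share and ratios given below, are uncertain to that extent.

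**Figure D3:**
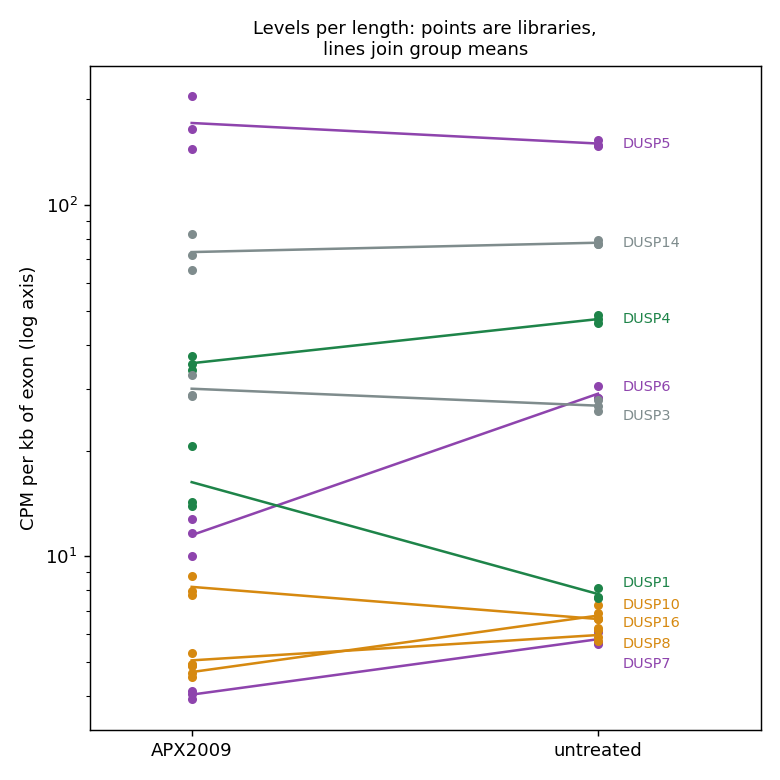
CPM per kb of exon on a log axis for the 10 phosphatase genes, APX2009 left and untreated right; points are libraries and lines join the group means. The lines of DUSP1 and DUSP6 cross, with DUSP6 at 11.5 with APX2009 and 29.01 in untreated cells and DUSP1 at 16.3 with APX2009 and 7.82 in untreated cells. The DUSP6 levels may be too low in both groups, because of the exon bases it shares with AC024909.2.

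Summed per length over the 10 genes, the phosphatase pool was 318.6, 349.0 and 409.9 CPM per kb in APX2009 libraries and 362.0, 361.6 and 366.4 CPM per kb in untreated libraries, so the groups overlapped. The ERK-selective members held 50.1%, 51.9% and 53.2% of it in APX2009 libraries and 50.7%, 50.4% and 50.9% in untreated libraries, again overlapping. The make-up of that portion differed. DUSP5 held 45.2%, 47.1% and 49.7% of the pool in APX2009 libraries and 40.6%, 41.0% and 41.6% in untreated libraries. DUSP6 held 3.66%, 3.67% and 2.44% in APX2009 libraries and 8.43%, 7.81% and 7.72% in untreated libraries. Neither gene's shares overlapped between the groups. The shares of all members add up to the whole pool, so a lower share of some raises those of others. DUSP5 itself did not pass the test. Its level in APX2009 replicate 1, 143.9 CPM per kb, was below the 147.0 to 152.4 CPM per kb of the untreated libraries. The JNK and p38 members together held 5.41%, 5.11% and 4.58% in APX2009 libraries and 5.46%, 5.48% and 5.07% in untreated libraries. DUSP1 held 4.35%, 4.09% and 5.04% in APX2009 libraries and 2.10%, 2.12% and 2.23% in untreated libraries. The shares of the JNK and p38 class overlapped between the groups and those of DUSP1 did not.

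Ratios of 2 members within a library do not depend on how the libraries are scaled. The pairs were picked after the values were seen and carry no test. The ratio of DUSP5 to DUSP6 per length was 12.3, 12.8 and 20.4 in APX2009 libraries and 4.82, 5.25 and 5.38 in untreated libraries. That of DUSP1 to DUSP4 was 0.409, 0.405 and 0.556 in APX2009 libraries and 0.166, 0.158 and 0.172 in untreated libraries. All APX2009 ratios exceeded all untreated ones in both pairs, which places nuclear DUSP5 further above cytoplasmic DUSP6 and brings DUSP1 closer to DUSP4. Within the JNK and p38 class, the ratio of DUSP16 to DUSP10 was 1.71, 1.64 and 1.89 in APX2009 libraries and 0.959, 0.907 and 1.08 in untreated libraries, so DUSP16 was the higher of the pair in every APX2009 library and the lower in 2 of 3 untreated libraries.

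**Figure D4:**
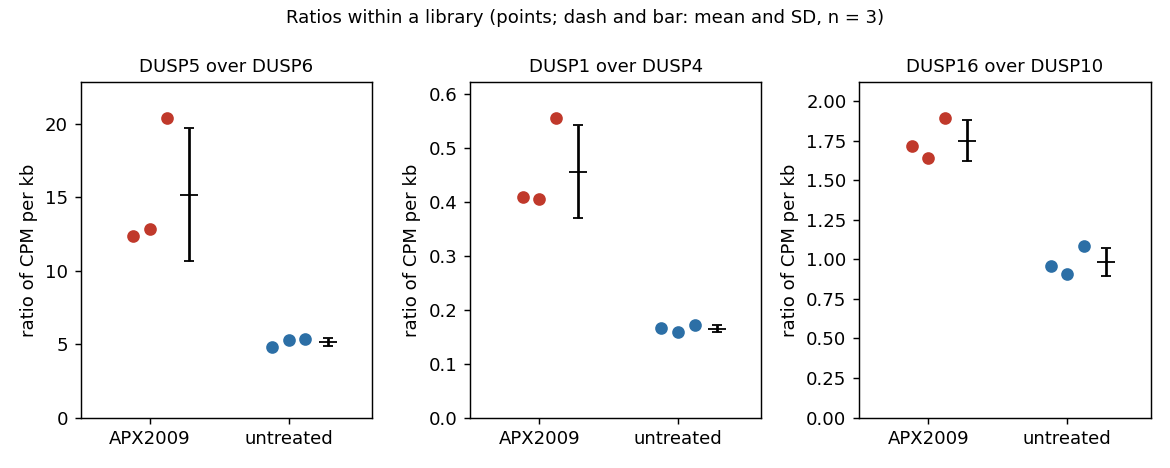
Ratio of CPM per kb between pairs of phosphatase genes within each library (points), APX2009 left and untreated right, on linear axes from 0. The DUSP5 to DUSP6 ratio averaged 15.2 ± 4.50 with APX2009 and 5.15 ± 0.297 in untreated cells (SD, n = 3 each), with the highest value, 20.4, in APX2009 replicate 3.

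The 3′ UTRs of the members were read in GENCODE 29, 1 transcript a gene, for the AU-rich heptamer TATTTAT, a letter pattern of messages that decay fast. It occurred in 4 of 10 members, where 31.0% of 12328 tested genes with a 3′ UTR held it. DUSP1 had 3 in 672 bases, DUSP4 had 4 in 3962, DUSP8 had 2 in 2474 and DUSP3 had 1 in 3488, and at least 3 were present in 5.44% of tested genes. DUSP6, DUSP5, DUSP7, DUSP10, DUSP14 and DUSP16 had none. The 4 carriers included a member that rose, DUSP1, and members that fell, DUSP4 and DUSP8. Of 6 listed proteins that bind AU-rich elements, none rose and 3 fell, where 17.4% of all genes tested fell (median log2 change -0.17): ELAVL1, which stabilises such messages, by 0.36 on the log2 scale (edgeR adjusted p = 0.00139), ZFP36L2, which destabilises them, by 0.30 (edgeR adjusted p = 0.00717) and ZFP36L1, of the same family, by 0.24 (edgeR adjusted p = 0.0197). ZFP36 had a log2 change of 0.16 (edgeR adjusted p = 0.0842). When each library was left out in turn, the ZFP36L1 call held in only 2 of 6 fits, and those of ELAVL1 and ZFP36L2 in all 6. Without APX2009 replicate 2, ZFP36 passed as higher (edgeR adjusted p = 0.0348), and the list then had 1 gene higher and 2 lower.

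The other typical members, DUSP2 and DUSP9, did not pass: DUSP2, a nuclear enzyme of immune cells, averaged 4.66 ± 0.565 CPM with APX2009 and 5.99 ± 0.276 CPM in untreated cells (SD, n = 3 each; edgeR adjusted p = 0.0678), and DUSP9, an ERK phosphatase of placenta, averaged 2.96 ± 0.340 CPM with APX2009 and 2.52 ± 0.530 CPM in untreated cells (SD, n = 3 each; edgeR adjusted p = 0.403). Of 9 tested atypical relatives 1 rose and 1 fell (22.2% changed, against 34.7% of all genes tested), with a median log2 change of 0.15. DUSP11, an RNA phosphatase, averaged 23.1 ± 0.422 CPM with APX2009 and 15.4 ± 1.26 CPM in untreated cells (SD, n = 3 each; log2 change 0.58 ± 0.09, SE; edgeR adjusted p = 5.96e-04). DUSP23 fell by 0.48 on the log2 scale (edgeR adjusted p = 0.0117), a call lost without untreated replicate 3 (edgeR adjusted p = 0.0505). DUSP18 and DUSP28, the next by p, did not pass (log2 changes 0.43 and 0.29; edgeR adjusted p = 0.125 and 0.164).
Of 6 tested phosphatases of other families that act on MAP kinases, 3 rose and none fell, where 17.2% of all genes tested rose (median log2 change 0.17): PPP2CB, a catalytic subunit of PP2A, by 0.25 on the log2 scale (edgeR adjusted p = 0.0112), PPM1A, which acts on p38 and JNK, by 0.23 (edgeR adjusted p = 0.0328), and PTPRR, a receptor-type ERK phosphatase near the lower limit of detection (0.673 ± 0.0943 CPM with APX2009 and 0.275 ± 0.111 CPM in untreated cells; SD, n = 3 each), by 1.28 (edgeR adjusted p = 0.0371). That count was 0 without untreated replicate 2 and 1 without APX2009 replicate 1, APX2009 replicate 2 or untreated replicate 3. PPM1B had a log2 change of 0.06 (edgeR adjusted p = 0.409).

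In the kinase cascades that these enzymes silence, the shares of genes that changed were under that of all genes tested, 34.7%: 26.7% for ERK, 16.7% for JNK, 25.0% for p38 and 23.1% for the stress MAP3K and TAB genes. Of 15 ERK cascade genes 3 rose and 1 fell, with a median log2 change of 0.13: MAPK3, an ERK kinase itself, averaged 43.9 ± 7.72 CPM with APX2009 and 59.2 ± 1.19 CPM in untreated cells (SD, n = 3 each; log2 change -0.43 ± 0.11, SE; edgeR adjusted p = 0.0114). BRAF, a kinase that starts the cascade, rose by 0.36, and the RAS-activating adaptors SOS2 and GRB2 by 0.23 and 0.22 (edgeR adjusted p = 0.0205, 0.0252 and 0.0261). That count of 4 became 7 without APX2009 replicate 1, 1 without untreated replicate 1 or 2, and 2 without untreated replicate 3.
Of 12 JNK cascade genes 2 rose and none fell (median log2 change 0.04): MAPK8IP3, a JNK scaffold, by 0.61 (edgeR adjusted p = 0.00814), and the kinase MAP3K10 by 0.27 (edgeR adjusted p = 0.0236). MAP2K4 and MAP3K12, kinases upstream of JNK, had log2 changes of 0.22 and 0.44 (edgeR adjusted p = 0.0536 and 0.0756). Of 8 tested p38 cascade genes none rose and 2 fell: the p38 kinase MAPK11 fell by 0.57 (edgeR adjusted p = 0.00123) and its substrate kinase MAPKAPK3 by 0.32 (edgeR adjusted p = 0.0451). MAPK14, another p38 kinase, and MAP2K3, which activates p38, had log2 changes of 0.12 and -0.13 (edgeR adjusted p = 0.165 and 0.177). Both lists were down to 1 changed gene without any single untreated library, and the JNK list also without APX2009 replicate 2 or 3. Of 13 stress MAP3K and TAB genes 1 rose and 2 fell (median log2 change -0.01). MAP3K5, the redox-sensitive kinase ASK1, fell by 0.58 (edgeR adjusted p = 1.45e-04), and TAB2, an adaptor of TAK1, by 0.26 (edgeR adjusted p = 0.00582). MAP3K2, which rose by 0.24, passed narrowly (edgeR adjusted p = 0.0444), and MAP3K1 had a log2 change of -0.19 (edgeR adjusted p = 0.126).

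Of 14 other tested genes that respond to ERK, none rose and 8 fell, where 17.4% of all genes tested fell. The median log2 change of the 14 was -0.30. The 6 that did not pass included the early factor EGR1 at a log2 change of 0.03, FOSL1 at 0.11 and IER3 at -0.04. The feedback inhibitor SPRY1 averaged 17.1 ± 1.35 CPM with APX2009 and 31.4 ± 2.07 CPM in untreated cells (SD, n = 3 each; log2 change -0.88 ± 0.09, SE; edgeR adjusted p = 5.12e-05). The receptor EPHA2 fell by 0.78 (edgeR adjusted p = 1.37e-04), the cyclin CCND1 by 0.60 (edgeR adjusted p = 8.92e-05) and the ETS factor ETV1 by 1.30 (edgeR adjusted p = 0.00171). Of 8 DNA-binding factors of the AP-1 and ATF families, some of which JNK and p38 act on, 5 rose and 1 fell. Among all genes tested 17.2% rose and 17.4% fell. The median log2 change of the 8 was 0.44, and DUSP1 rose as well. JUN had 39.1, 35.0 and 61.1 CPM in APX2009 libraries and 11.5, 14.7 and 12.0 CPM in untreated libraries, 3.53-fold higher (edgeR adjusted p = 8.22e-05). ATF3, a stress-induced factor, had 45.7, 42.0 and 60.4 CPM in APX2009 libraries and 19.6, 19.0 and 17.4 CPM in untreated libraries, 2.64-fold higher (edgeR adjusted p = 2.92e-05). As for DUSP1, APX2009 replicate 3 was the highest library for both JUN and ATF3. That library was also the highest APX2009 library for 7 of the 10 members, among them DUSP4 and DUSP8, which fell. ATF2 rose by 0.54 (edgeR adjusted p = 7.99e-04) and JUNB fell by 0.68 (edgeR adjusted p = 2.97e-05). Over all 10 lists, 33 of 93 tested genes (35.5%) changed (15 rose and 18 fell) with a median log2 change of 0.02, beside 34.7% and 0.02 of all genes tested. The count was 21 without untreated replicate 2, and with ERCC scaling it was 0 in edgeR, with 3 at an unadjusted p under 0.05, a smaller share (3.23%) than that of all genes tested (4.62%).

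**Figure D5:**
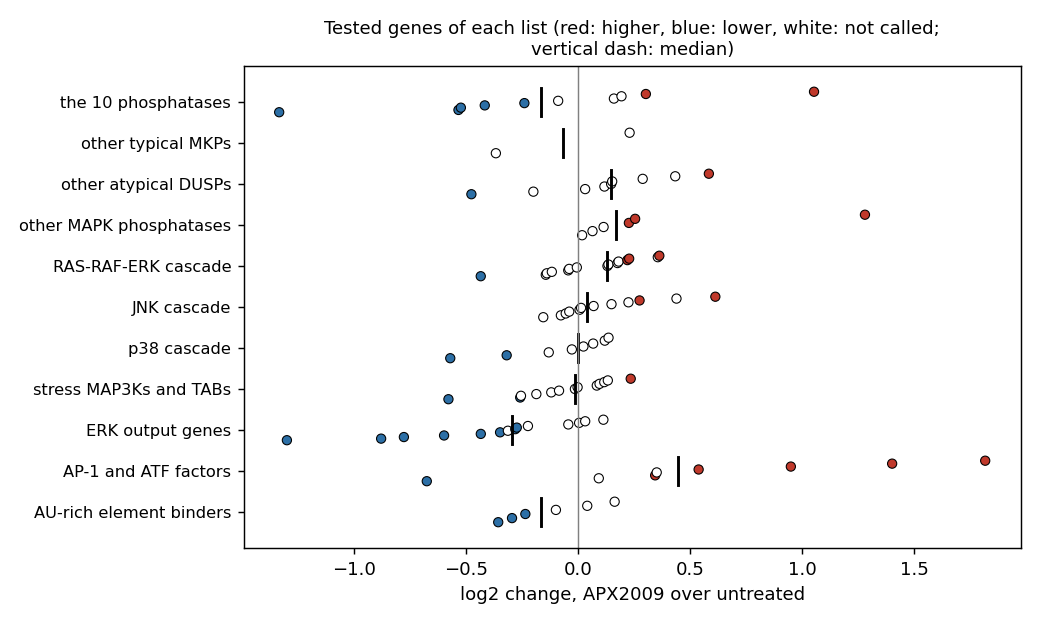
Log2 change (APX2009 over untreated) of the tested genes in each pathway list and in the 10 phosphatase genes, 1 point a gene, with the list median as a bar. The ERK-responsive genes have a median of -0.30 and the AP-1 and ATF factors one of 0.44, while the kinase cascades lie near 0.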

How the data were processed

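Polyadenylated RNA of 3 APX2009 and 3 untreated OE33 cultures was sequenced, per the labels' protocols. The values deposited by the authors are raw read counts by Ensembl gene, with no normalization. Trimmomatic 0.36, STAR 2.5.2b, featureCounts, Subread 1.5.2 and the build GRCh38 are named, per the submitters' processing notes. How they were combined, with which annotation and strand setting, is not given in the sources used here. GENCODE 29 supplied symbols, coordinates and exon lengths, and matched 57447 of 58051 gene IDs; the IDs without a match held 0.0348% of counts.

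Counts of the 92 ERCC transcripts entered neither library sizes nor tests. After filterByExpr and TMM scaling, treatment was tested with edgeR 4.0.16 (quasi-likelihood F-test, two-sided, R 4.3.3), adjusted by Benjamini and Hochberg. Standard errors were derived from the F statistic, and the biological coefficient of variation was 10.3%. CPM is the count scaled by the TMM-adjusted library size. The step was also run on simulated counts, in which a far smaller share of genes changed than here. That run does not show how the step performs on these data. Replicates differed by more than sampling noise in every pair (chi-square per degree of freedom 3.22 to 33.4). Alternatives used other scalings and filters, DESeq2 1.42.0, voom of limma 3.58.1, stricter thresholds, a replicate block and leaving out each library.

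The members and lists were chosen with earlier results of these data known. Named genes are the 10 members, DUSP2 and DUSP9, up to 4 genes with the smallest p from each of 10 lists, genes whose exons overlap those of a member, and pseudogenes named for one. KRTAP5-AS1, AC022217.3, CD68, KRT19, KRT8, KRT18, CDH1, EPCAM, COL1A1, CD3E, EGR1, FOSL1 and IER3 were named after their values were seen. No set test was made.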

Additional observations from a re-analysis of the deposited data

How the results depend on the processing

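The direction of all 10 phosphatases held under the 15 of 17 alternatives that estimate changes anew. Scaling by ERCC transcripts, whose share varied within the groups, left 136 changed genes (129 higher, 7 lower), 0 members and 0 pathway genes in edgeR. At an unadjusted p under 0.05 that edgeR fit left 2 members, DUSP6 and DUSP1, and 682 of all genes tested (4.62%). DESeq2 with its own size factors called 6 members and voom 7. An adjusted p under 0.01 gave 3057 genes, 6 members and 17 pathway genes, and a test against a 1.5-fold change gave 606 genes, 2 members (DUSP1 and DUSP6) and 4 pathway genes. Leaving out each library gave 3503 to 5709 genes, 6 to 9 members and 21 to 39 pathway genes; the 9 came without APX2009 replicate 1, when DUSP3 and DUSP5 passed, and the 21 without untreated replicate 2. The difference of class medians was -0.28, against -0.50 with DUSP4 and DUSP1 added and -0.40 for means of the same members. Correlations of same-numbered deviations were 0.140, 0.0782 and 0.00599. APX2009 replicates 1 and 2 correlated best with the untreated library of the same number, and APX2009 replicate 3 with untreated replicate 2, at 0.115. Whether replicate numbers pair the libraries was thus not settled. The fit with the replicate block called 5501 genes, 7 members and 34 pathway genes. The members had 283 counts or more in each library. At 3 libraries a group, the log2 changes of DUSP3, DUSP5 and DUSP14, none over 0.19 in size, did not pass.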
